A study of Drosophila melanogaster with 6 samples.

Results

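Enzymes of fatty acid beta-oxidation were compared between 2 stocks of whole adult Drosophila melanogaster females. The set was defined by gene symbol and names 10 genes: whd, Mcad, Mtpalpha, Mtpbeta, yip2, scu, Acox57D-p, Acox57D-d, Etf-QO and Arc42. Probe sets carrying exactly 1 gene symbol matched 7 of the 10, out of 11982 genes with such probe sets. The 7 genes had 8 probe sets of their own among the 18769 tested, and 1 more was shared by scu and DIP-epsilon. Mcad, Mtpalpha and Etf-QO were not analysed here.

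The 6 one-colour arrays comprised 3 of the Calment1/4 mutant, in a background named CS10, and 3 of CanS, the Canton-S wild type. All flies were kept at 25 °C on standard food, and each sample pooled 30 to 35 frozen females, so no value belongs to a single fly. The labels give the stage as adult and the sex as female, with no age in days. The mutation and the background of the stock cannot be told apart in this design.

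Beta-oxidation shortens fatty acids by repeated rounds of dehydrogenation, hydration, a further dehydrogenation and thiolytic cleavage, each round releasing acetyl-CoA. In mitochondria the fatty acids enter through the carnitine shuttle, and the electrons pass to the respiratory chain. In peroxisomes the opening step is catalysed by acyl-CoA oxidases, which pass electrons to oxygen and make hydrogen peroxide. Fat body, muscle, gut and the oenocytes all oxidise fatty acids in adult flies, and lipid use is tied to starvation survival.

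The 7 measured enzymes differed between the stocks by 0.17 log2 units at most. Their log2 differences, Calment1/4 minus CanS, ran from -0.17 for the thiolase yip2 to 0.07 for whd, and none passed the threshold (limma, adjusted p under 0.05 over all probe sets, lowest adjusted p = 0.667). In the same fit 87 of 18769 probe sets, or 0.464%, were called. At an unadjusted p under 0.05 the enzymes counted 0 of 7, where 7.67% of all probe sets passed. The 95% intervals of the 7 differences reached no further than -0.35 and 0.26 on the log2 scale. An array level more than 1.28-fold lower or 1.20-fold higher in Calment1/4 therefore lay outside the interval of every measured enzyme. Each interval holds for its enzyme singly and is not adjusted for the number of genes. In whole bodies, fewer cells of a type and less RNA per cell cannot be told apart.

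**Figure D1:**
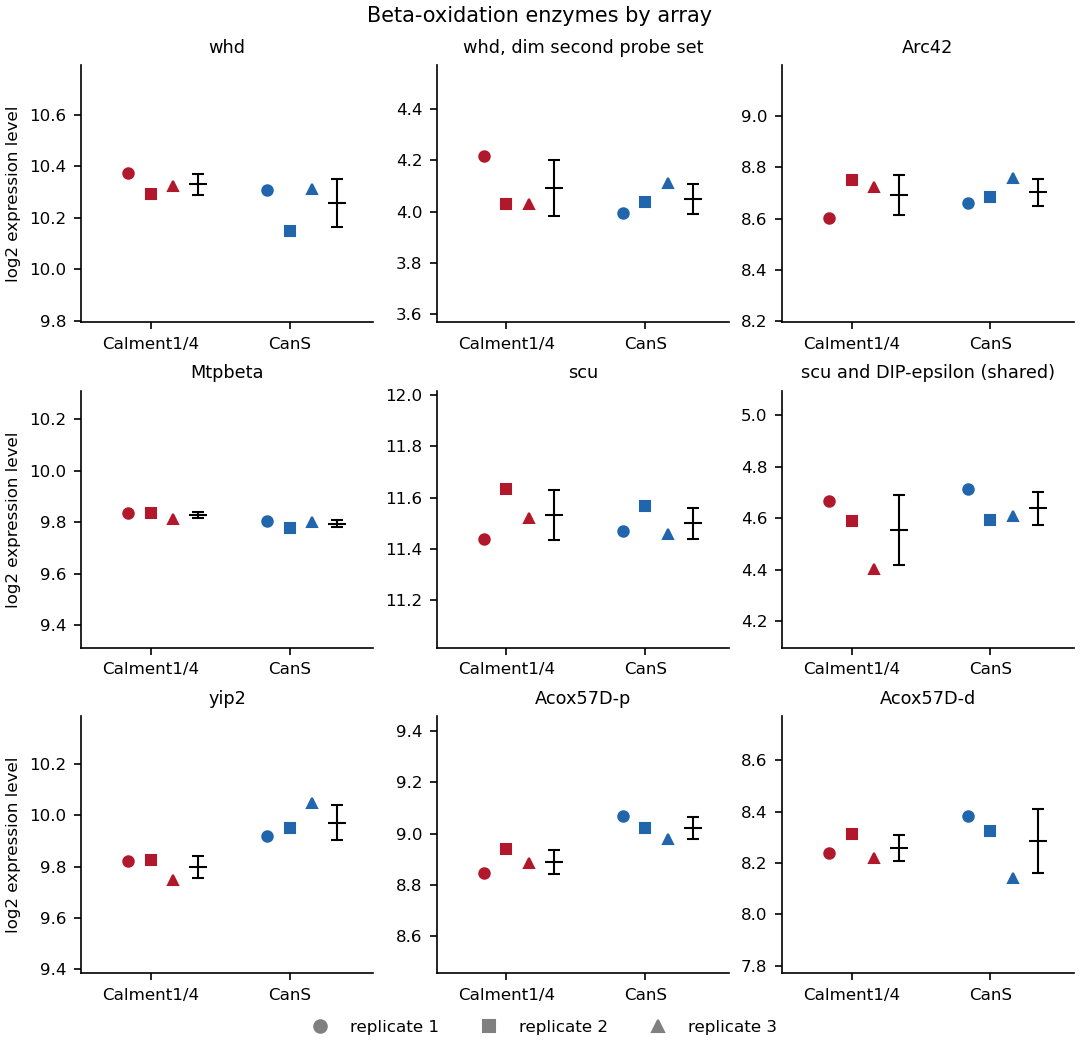
Log2 expression level of each probe set of the beta-oxidation enzymes, with 1 point per array (red, Calment1/4, blue, CanS; marker shape gives the replicate) and the group mean with its SD in black (n = 3); every panel spans 1 log2 unit. The groups are separate for Mtpbeta, yip2 and Acox57D-p and overlap in the other panels.

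Entry into mitochondria was represented by whd, the fly carnitine palmitoyltransferase of the outer mitochondrial membrane, whose mutants are sensitive to starvation and oxidative stress. Its bright probe set read 10.37, 10.29 and 10.32 in Calment1/4 replicates 1, 2 and 3 and 10.31, 10.15 and 10.31 in the CanS replicates on the log2 scale. CanS replicate 2 was the lowest array, and the groups overlapped. The difference was 0.07 (SE 0.08, 95% interval -0.11 to 0.26, adjusted p = 0.956 in limma), and 0.02 without CanS replicate 2. A second whd probe set was dim, with a percentile rank of 24.6 among all probe sets, and read 4.22, 4.03 and 4.03 against 4.00, 4.04 and 4.11. Its difference was 0.04, with Calment1/4 replicate 1 the highest array.

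Among the mitochondrial enzymes that follow, Arc42, annotated as a short-chain acyl-CoA dehydrogenase, read 8.60, 8.75 and 8.72 in Calment1/4 and 8.66, 8.68 and 8.76 in CanS. The groups overlapped, with Calment1/4 replicate 1 the lowest array and CanS replicate 3 the highest. The difference of -0.0099 (95% interval -0.19 to 0.17) was the closest to 0 of the 7.

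Mtpbeta encodes the thiolase subunit of the mitochondrial trifunctional protein, which works on long-chain intermediates. It read 9.84, 9.83 and 9.81 in Calment1/4 and 9.81, 9.78 and 9.80 in CanS. The 3 Calment1/4 arrays lay above the 3 CanS arrays, but the gap was 0.0079 on the log2 scale. The difference was 0.03 (SE 0.07, 95% interval -0.13 to 0.20, adjusted p = 0.995 in limma), where the SE draws on the spread of all probe sets. The within-group SD of Mtpbeta, 0.014, was lower than that of all but 0.133% of probe sets.

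The dehydrogenase scu, which also belongs to the mitochondrial RNase P complex, read 11.44, 11.63 and 11.52 in Calment1/4 and 11.47, 11.57 and 11.46 in CanS. Replicate 2 was the highest array of each stock. The difference was 0.03 (95% interval -0.16 to 0.23). The dim probe set shared with DIP-epsilon differed by -0.08 (95% interval -0.30 to 0.13) with overlapping groups, and which of its genes it reports was not resolved.

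The lowest adjusted p of the 7 belonged to yip2, a mitochondrial beta-ketoacyl-CoA thiolase that carries out the closing cleavage of a round. It read 9.82, 9.83 and 9.75 in Calment1/4 and 9.92, 9.95 and 10.05 in CanS. Every Calment1/4 array lay below every CanS array, with a gap of 0.09. The difference was -0.17 (SE 0.08, 95% interval -0.35 to 0.0056, adjusted p = 0.667 in limma), or 1.13-fold. An exact permutation test over the 20 assignments of 3 arrays against 3 gave a two-sided p of 0.1, the smallest this design allows. Any gene with separate groups gets this value, Mtpbeta and Acox57D-p too, so it adds nothing to the separation.

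The peroxisomal acyl-CoA oxidases Acox57D-p and Acox57D-d are next to each other on chromosome arm 2R in the RefSeq table of genes. Acox57D-p read 8.84, 8.94 and 8.89 in Calment1/4 and 9.07, 9.02 and 8.98 in CanS, groups that did not overlap by a gap of 0.04. Its difference was -0.13 (SE 0.08, 95% interval -0.31 to 0.04, adjusted p = 0.811 in limma). Acox57D-d read 8.24, 8.31 and 8.22 against 8.38, 8.33 and 8.14. Its groups overlapped, since CanS replicate 3 was the lowest of the 6 arrays, and the difference was -0.03 (95% interval -0.23 to 0.18).

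The groups were thus separate for 3 of the 7 enzymes, or 42.9%, Mtpbeta upwards and yip2 and Acox57D-p downwards. Over all probe sets the groups were separate in 12.6%, upwards in 6.36% and downwards in 6.27%. The 3 differences lay on both sides of 0, were 0.17 in size at most and did not pass the test. The within-group SDs of the 7 ran from 0.014 to 0.10 with a median of 0.07, against a median of 0.12 for the 4724 probe sets whose mean level lay in the same range. The median size of the differences was 0.03 for the enzymes and 0.07 for those probe sets. Over all probe sets, 16.7% had a larger difference in size than yip2, and 26.3% a larger one than Acox57D-p. The smallest difference called among 25 called probe sets of that level range was 0.55, and 0.48 among all called probe sets. No probe set with a difference as small as those of the 7 was called. The lack of a call is therefore no measure of how small these differences are.

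The enzymes did not vary as a block across arrays. Around each gene's own mean, the median over the 7 was -0.06, 0.02 and 0.0023 in Calment1/4 replicates 1, 2 and 3 and 0.02, 0.05 and 0.02 in the CanS replicates. Calment1/4 replicate 1 was the lowest array for 3 enzymes (Arc42, scu and Acox57D-p) and the highest for whd and Mtpbeta. As a description over 6 arrays, 8 of the 21 pairs of enzymes had a Pearson r above 0, and r ran from -0.69 for Mtpbeta and Acox57D-p to 0.80 for whd and Mtpbeta. The points share the stock difference and the between-array scaling.

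Medians of the yolk, germline, muscle and gut markers spread more widely over the arrays than that of the enzymes. The 14 measured yolk and eggshell genes, products of egg formation, stood at -0.39 in Calment1/4 replicate 1 and -0.62 in CanS replicate 3, and between 0.19 and 0.31 in the other 4 arrays. The 14 female germline genes were at -0.27 and -0.26 in the same arrays and between 0.05 and 0.26 in the others. Of 12 muscle markers 9 were measured. Their medians lay between -0.26 and 0.05 for the Calment1/4 arrays and between -0.24 and 0.28 for CanS, with log2 summed levels of 14.52 to 14.86 and 14.50 to 15.32. The 10 measured gut markers, of 12, lay between -0.32 and -0.01 for Calment1/4 and between 0.02 and 0.43 for CanS, with summed levels of 15.50 to 15.68 and 15.69 to 15.88. They were Npc2e, Npc2f, alphaTry, betaTry, Jon65Ai, Jon65Aii, Jon99Ci, Mal-A1, LManV and LManIII. Gut content and a stock difference in these genes themselves cannot be told apart. The 10 fat body markers ran from -0.16 to -0.0067 and from -0.03 to -0.0053, and the 8 oenocyte markers from 0.04 to 0.07 and from -0.08 to 0.0022. No measured marker of these 6 lists fell in the dimmest 33.3% of probe sets. The part of tissue content in the enzyme levels was not tested. Without Calment1/4 replicate 1 and CanS replicate 3 together, yip2 was at -0.15 and Arc42 at 0.06, and none of the 7 was called.

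**Figure D2:**
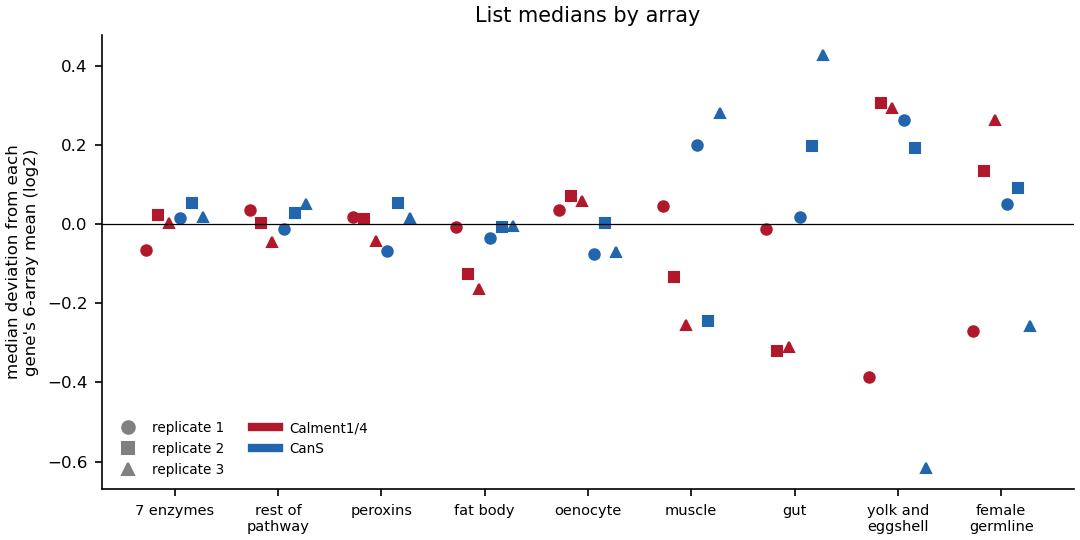
Median log2 deviation of each gene list from the genes' own 6-array means, 1 point per array (red, Calment1/4, blue, CanS; marker shape gives the replicate). The 7 enzymes stay between -0.06 and 0.05 on all arrays, while yolk and eggshell genes span -0.62 to 0.31 and gut markers -0.32 to 0.43.

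The further genes listed for the pathway held 1 change. Of 34 further genes listed by role in or beside beta-oxidation, 29 were measured. The list includes Cat, a catalase, and Had1, whose part in beta-oxidation was not taken as known. Acat1 rose and the other 28 did not pass, where 0.266% of all probe sets were called higher and 0.197% lower in Calment1/4. At an unadjusted p under 0.05 in limma the list counted 3 of 29, where 7.67% of all probe sets passed. The median difference of the 29 was -0.03, with 10 above 0 and 19 below. Over all tested probe sets the median was 0.00054.

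Acat1 encodes an acetyl-CoA acetyltransferase, an enzyme that cleaves or forms acetoacetyl-CoA. It read 9.83, 9.89 and 9.86 in Calment1/4 and 9.14, 9.30 and 9.29 in CanS. Every Calment1/4 array lay above every CanS array, with a gap of 0.53. The level was 1.53-fold higher in Calment1/4, a log2 difference of 0.61 (SE 0.08, 95% interval 0.43 to 0.80, adjusted p = 0.0180 in limma). The call, though not the size of the difference, depended on which array was left out. With Calment1/4 replicate 1 left out it held (adjusted p = 0.0180 in limma). Leaving out replicate 2 or 3 of Calment1/4 ended it (adjusted p = 0.119 and 0.0917), as did leaving out replicate 1, 2 or 3 of CanS (adjusted p = 0.0657, 0.0612 and 0.0587), while the difference stayed between 0.56 and 0.64. The other gene listed in the thiolase role, Acat2, differed by -0.06 with overlapping groups.

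**Figure D3:**
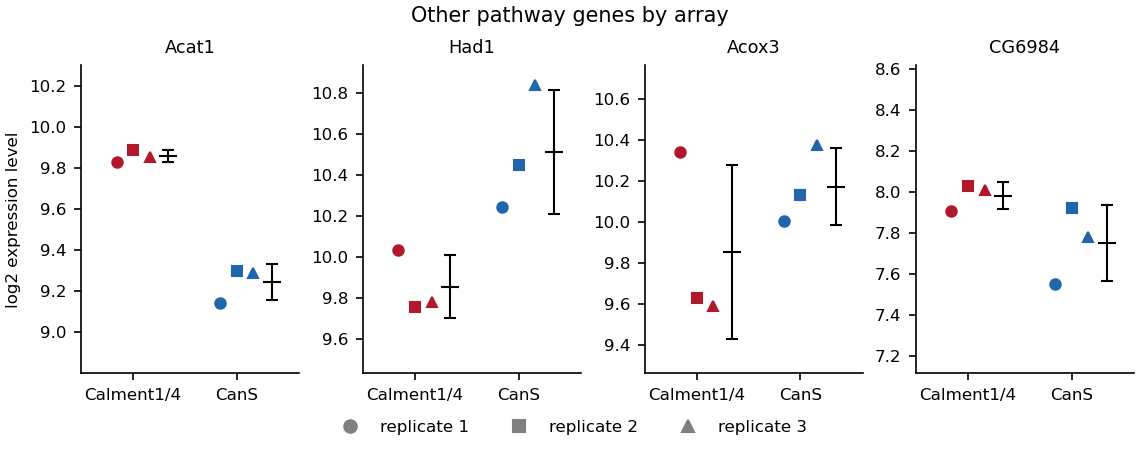
Log2 expression level of Acat1, Had1, Acox3 and CG6984 on each array (red, Calment1/4, blue, CanS; marker shape gives the replicate) with the group mean and SD in black (n = 3); every panel spans 1.5 log2 units. Acat1 and Had1 have separate groups, 0.53 and 0.21 apart, and Acox3 and CG6984 overlap.

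Of the 10 hydratases, isomerases and hydroxyacyl-CoA dehydrogenases none passed, with 3 above 0 and 7 below. Had1 had the largest difference in size of all 29. It read 10.03, 9.76 and 9.78 in Calment1/4 and 10.25, 10.45 and 10.84 in CanS. The groups did not overlap, and CanS replicate 3, also the highest array for gut markers, was the highest. The difference was -0.65 (SE 0.15, 95% interval -1.01 to -0.30) and did not pass (adjusted p = 0.168 in limma). It was -0.49 without CanS replicate 3 and -0.72 with array weights, which brought it past the threshold (adjusted p = 0.0278). RefSeq gives CRYL1 as a synonym of Had1, and whether the gene acts in beta-oxidation was not taken as known. Had2, named outside the rule after its values were seen, was at -0.34 with overlapping groups (95% interval -0.68 to -0.0069, adjusted p = 0.641 in limma). The largest value above 0 in this role was that of CG6984, an enoyl-CoA hydratase family gene, at 0.23 (95% interval -0.01 to 0.47) with overlapping groups.

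The 7 genes of fatty acid activation and the carnitine shuttle lay between -0.16 for CRAT, a carnitine acetyltransferase, and 0.13 for Acsl, a long-chain acyl-CoA synthetase. The median of that role was -0.02. The groups of CRAT did not overlap, by a gap of 0.0053. CRAT was at -0.08 without Calment1/4 replicate 3, and Acsl at 0.05 with CanS replicate 1 left out and 0.07 with Calment1/4 replicate 1 left out. The 3 acyl-CoA dehydrogenases measured beside Arc42 lay between -0.11 for CG4860 and 0.08 for Acadvl, the very-long-chain enzyme. For CG4860 the groups did not overlap, by a gap of 0.035. Egm (enigma), named outside the rule after its values were seen because its mutants are known for long life and resistance to oxidative stress, was at 0.06 (95% interval -0.11 to 0.23). The electron carrier subunit wal, the alpha chain of the electron transfer flavoprotein, was at -0.05.

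The 6 peroxisomal genes had a median of -0.10, with 5 below 0 and none past the threshold. Acox3, an acyl-CoA oxidase, read 10.34, 9.63 and 9.59 in Calment1/4 and 10.01, 10.13 and 10.38 in CanS. Calment1/4 replicate 1 and CanS replicate 3 were its highest arrays, the same arrays that stood lowest for yolk and eggshell genes. Its difference was -0.32 (95% interval -0.77 to 0.14), and it was not called with any array left out. It was -0.56 without Calment1/4 replicate 1 (adjusted p = 0.0646 in limma), but -0.20 and -0.18 without Calment1/4 replicates 2 and 3 and -0.21 without CanS replicate 3 (adjusted p = 0.999 or above in limma). CG4586, another acyl-CoA oxidase family gene, was at 0.10. Of 13 peroxins, which build peroxisomes, 9 were measured and none passed. They lay between -0.08 for Pex10 and 0.16 for Pex2, with a median of -0.0060. The 4 regulators measured of 5 lay from 0.03 for AMPKalpha, a subunit of the energy-sensing kinase, to 0.13 for the transcription factor foxo, and none passed. AMPKalpha was at -0.04 without CanS replicate 2.

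**Figure D4:**
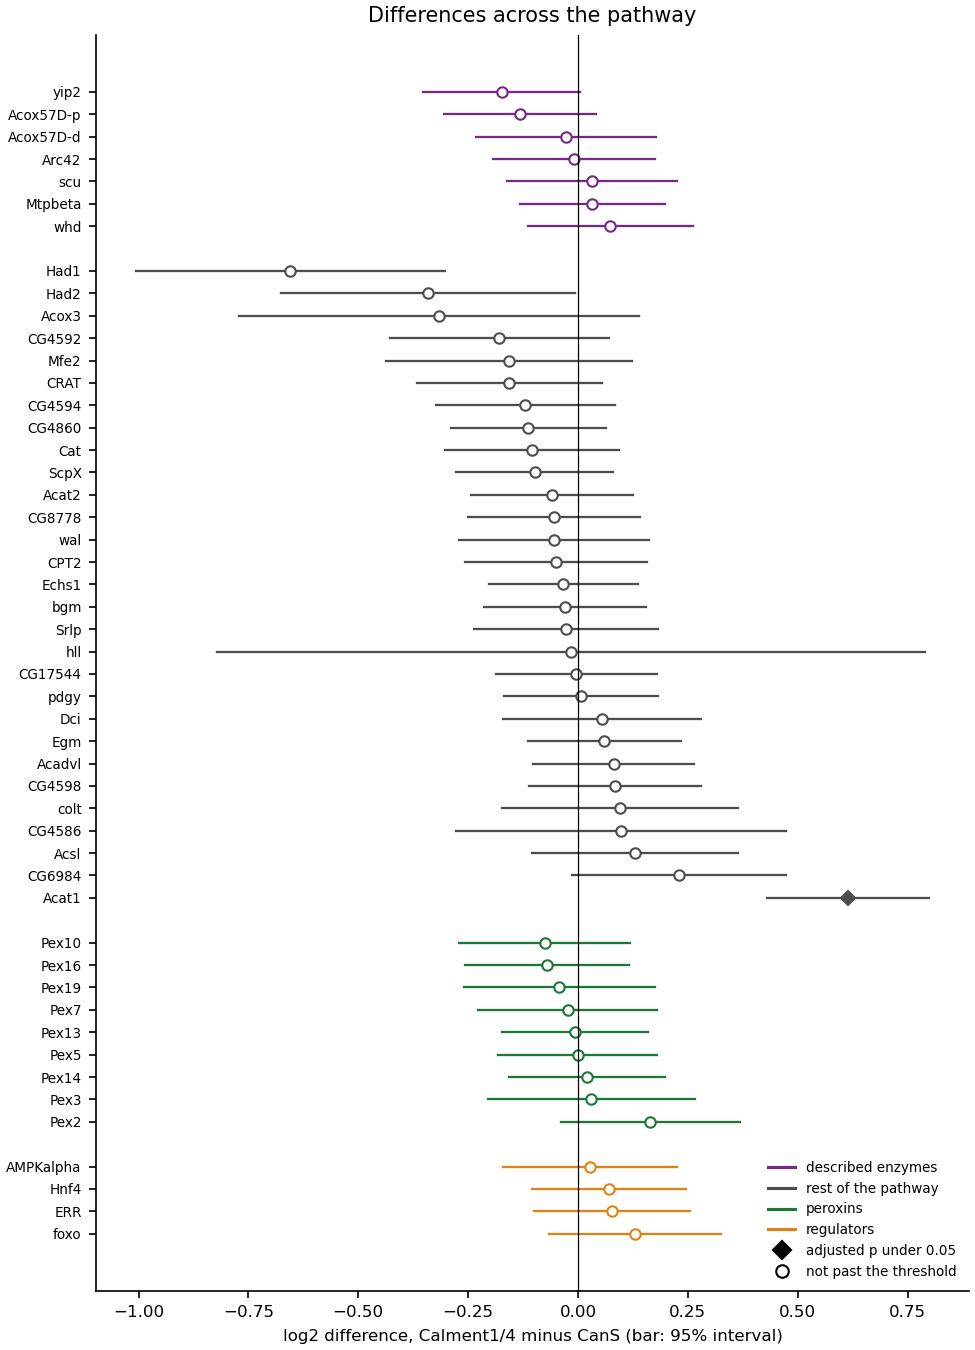
Log2 difference, Calment1/4 minus CanS, with its 95% interval from limma (not adjusted for the number of genes) for the 7 enzymes, 29 further genes in or beside the pathway, 9 peroxins and 4 regulators. Only Acat1, the filled diamond at 0.61, passed the threshold, and all 7 enzymes lie within -0.17 and 0.07.

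In 4 of the 42 further genes, or 9.52%, the groups were separate, against 12.6% of all probe sets. Among the 42 further genes, those most like yip2 across the 6 arrays were Had1 (Pearson r = 0.96), Cat, the catalase that removes hydrogen peroxide (r = 0.86), and CG4592, an enoyl-CoA isomerase family gene (r = 0.82). These are descriptions over points that include the stock difference. Cat itself differed by -0.10 (95% interval -0.30 to 0.09). In the RefSeq order of genes on arm 2L, yip2 is followed by CG5885 and then by CG4598, CG4594 and CG4592, a run of isomerase family genes. CG5885, CG4598 and CG4594 are named here for their position, outside the rule for named genes and after values were seen. The differences of these 4 neighbours were 0.12, 0.08, -0.12 and -0.18, so they lay on both sides of 0.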

How the data were processed

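Labelled cRNA of each pool was hybridised to an Affymetrix array, per the labels' protocols. The authors' deposited table holds a log2 level for every probe set on every array. Of the tools in the submitters' processing notes (affy 1.36.0, RMA, MAS5) no role is stated, so the summary and normalization method is unknown here. Summaries scaled between arrays hide a change shared by most transcripts and pull dim probe sets to a floor. Array medians lay between 5.84 and 5.91, arrays correlated at 0.991 to 0.998, and the Act5C control probe sets differed by 2.37 to 2.57 (3' minus 5', log2). The number of arrays limits the precision.

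The 183 control probe sets were left out. Symbols came from the platform's table, updated to RefSeq (Release 6 plus ISO1 MT) by gene identifier, with 13544 of 13647 single-symbol probe sets matched. The stock difference was fitted in R 4.3.3 by limma 3.58.1 (lmFit, eBayes, two-sided) and Benjamini-Hochberg adjustment over 18769 probe sets, threshold 0.05. The step was tested on simulated data with independent noise. The simulation held no array-wide variation and no shifts as small as the enzymes' differences. The brightest probe set stands for a gene. Named genes are all enzymes of the set, further pathway genes past the threshold, the highest and lowest difference of each role, and the 3 most like yip2, with exceptions stated where they are named. Further genes with their roles were listed by hand. The members and lists were chosen with earlier results of these data known. The titles call the arrays biological replicates. Figures were drawn with matplotlib 3.10.9. Alternatives were a repeated quantile normalization, median centring, leaving out the dimmest 33.3%, trend and robust eBayes, array weights, a replicate block, 1 probe set per gene, means of probe sets, a threshold of 0.01, and arrays left out.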

Additional observations from a re-analysis of the deposited data

How the results depend on the processing

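None of the 9 probe sets of the enzymes was called in any of the 139 alternative values computed (limma, lowest adjusted p = 0.327, values from -0.20 to 0.10). The dim whd and the shared scu probe sets have no value with 1 probe set per gene or with means, and the dim whd probe set none after the filter on dim probe sets. The count over all probe sets, 87, was 337 with array weights, 30 with the replicate block, 57 with means of probe sets, 38 at a threshold of 0.01, 228 without Calment1/4 replicate 1 and CanS replicate 3, and 38 to 281 with single arrays left out (281 without Calment1/4 replicate 1, 38 and 45 without Calment1/4 replicates 2 and 3, 54 without CanS replicate 3). With array weights 39.2% of calls were higher in Calment1/4, against 57.5%. Of the 42 further genes, 1 was called, 2 with array weights, 0 with the replicate block or at 0.01, and 0 to 1 with single arrays left out. The labels do not say whether replicate numbers pair the arrays. Deviations from the stock means correlated at -0.29, 0.20 and -0.43 for same-numbered arrays. For Calment1/4 replicate 1 and CanS replicate 3 the value was 0.54. Such correlations cannot decide on pairing, since the deviations within a stock sum to 0 and carry variation of whole arrays. In the replicate block fit Acat1 kept 0.61 with an adjusted p of 0.127 in limma.

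Sign changes occurred in the following results. With array weights the dim whd probe set was at -0.0024 and Arc42 at 0.028. Arc42 was at 0.063 without Calment1/4 replicate 1 and CanS replicate 3. With single arrays left out the range was -0.019 to 0.075 for the dim whd probe set, -0.039 to 0.035 for Arc42, -0.019 to 0.078 for scu, -0.097 to 0.022 for Acox57D-d, -0.12 to 0.0058 for wal, -0.0018 to 0.30 for CG4586 and -0.038 to 0.071 for AMPKalpha. Over all 42 further genes, 15 changed sign with at least 1 single array left out. Among these hll, an acyl-CoA synthetase gene singled out after its values were seen, went from -0.02 to 0.47 without CanS replicate 3. Without CanS replicate 1 it went to -0.32, and its within-group SD of 0.61 ranked at percentile 99.4 of all probe sets. A pseudocount did not apply to log2 values. Whether dim probe sets stood above background was not judged.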
